A study of Homo sapiens with 20 samples.

Results

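The genes described here encode 10 RNA-binding proteins of 4 families that act on splicing, stability or translation of mRNA in neural cells: the Hu family (ELAVL1, ELAVL2, ELAVL3 and ELAVL4), the polypyrimidine tract-binding proteins (PTBP1 and PTBP2), the NOVA proteins (NOVA1 and NOVA2) and the Musashi proteins (MSI1 and MSI2). They were chosen by name, as the coding record that carries each symbol, and are 10 of the 20237 coding records. Each symbol had 1 coding record, no record was shared with another gene symbol, and no other coding record overlapped any of them. Polyadenylated RNA came from neural progenitors made from H1 human embryonic stem cells, an established line, so all samples share 1 genetic background. Differentiation was started by withdrawing the mitogen FGF, and BDNF, which supports neuronal survival, was given in its place. The 20 samples cover 7 days, with 3 cultures each at days 0, 1, 2, 4, 11 and 18 and 2 cultures at day 5. Cells for days 5, 11 and 18 had been moved at day 4 to plates coated with Poly-D-lysine and laminin. Time and the change of surface therefore cannot be told apart in the step from day 4 to day 5. The same holds for day 18 against day 0, and for any other comparison of days up to day 4 with later days. The files hold 1 FPKM value (sequenced fragments scaled to transcript length and to all mapped fragments) per gene record and day, pooled over the cultures, so there is no spread between cultures, no test and no known depth behind any value below.

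Hu proteins bind AU-rich and U-rich stretches of mRNA. ELAVL1, also called HuR, is made in nearly all cells, whereas ELAVL2, ELAVL3 and ELAVL4 (HuB, HuC and HuD) are known as neuronal proteins. PTBP1 binds pyrimidine-rich RNA and represses many exons that neurons include. It is replaced by its paralog PTBP2 in young neurons, and PTBP1 protein is known to cause skipping of a short exon of PTBP2, which exposes that mRNA to nonsense-mediated decay. NOVA proteins regulate exons of synaptic genes through clusters of short motifs. Musashi proteins are translational regulators first known from neural progenitors.

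The following exons are shown because the PTB and NOVA proteins are known to act on their own or each other's pre-mRNA. The files' build is hg19, and the bases were read from GRCh37. Each window holds 120 bases of intron before the exon and 30 bases after it, with the exon in capitals. The PTBP2 exon lies at chr1:97271975-97272008 on the plus strand (window chr1:97271855-97272038), the PTBP1 exon at chr19:807869-807902 on the plus strand (window chr19:807749-807932), and the NOVA1 exon at chr14:26941526-26941597 on the minus strand (window chr14:26941496-26941717).
PTBP2: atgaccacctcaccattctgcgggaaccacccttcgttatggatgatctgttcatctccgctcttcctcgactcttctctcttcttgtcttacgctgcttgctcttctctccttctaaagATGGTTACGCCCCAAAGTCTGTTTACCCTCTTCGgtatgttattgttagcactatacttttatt
PTBP1: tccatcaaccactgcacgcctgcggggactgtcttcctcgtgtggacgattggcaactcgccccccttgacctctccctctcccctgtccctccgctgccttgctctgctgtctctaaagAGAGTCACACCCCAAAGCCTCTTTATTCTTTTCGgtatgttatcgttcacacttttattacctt
NOVA1: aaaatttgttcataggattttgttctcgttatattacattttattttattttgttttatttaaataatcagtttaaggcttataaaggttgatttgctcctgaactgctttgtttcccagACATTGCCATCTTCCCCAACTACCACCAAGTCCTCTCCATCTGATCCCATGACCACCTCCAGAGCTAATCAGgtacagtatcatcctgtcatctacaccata

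The PTBP1 and PTBP2 exons are both 34 bases long and identical at 25 of 34 positions. All 3 exons are coding in the GENCODE annotation. The length of 34 leaves a remainder of 1 when divided by 3, so skipping shifts the reading frame, whereas the NOVA1 exon of 72 bases leaves a remainder of 0. The exon was present in 7 of the 12 PTBP2 isoforms in the deposited assembly, in 5 of 6 PTBP1 isoforms and in 3 of 4 NOVA1 isoforms. In the 120 bases before the PTBP2 exon, on the transcribed strand, the motif TCTT occurred 6 times and CTCTCT occurred once, the matches of these motifs overlapping in part. Before all internal coding exons of protein-coding transcripts (168126 distinct exons), 64.6% of windows of the same length held TCTT at least once and 0.306% held it 6 times or more, and 9.73% held CTCTCT. The window before the PTBP1 exon held 1 TCTT and no CTCTCT, and that before NOVA1 held neither. The NOVA motif, CA with C or T on either side, occurred 5 times within the NOVA1 exon, a count with no share over other exons. In the 120 bases before that exon it occurred once, on the transcribed strand, where 85.0% of windows before internal coding exons held it at least once. The median window held it 2 times. It also occurred 5 times before the PTBP2 exon, where 6.13% of windows held as many or more, and 2 times before the PTBP1 exon (57.9%). These counts describe letters only. The FPKM of a gene record sums its isoforms, so the values below do not say how often any of these exons was included.

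The level of the Hu family moved from ELAVL1 towards the 3 neuronal members. ELAVL1 (chr19:8023458-8070529, minus strand) had an FPKM of 32.9 on day 0, 22.8 on day 1, 22.3 on day 2, 23.1 on day 4, 21.3 on day 5, 21.2 on day 11 and 17.8 on day 18. It was highest in the progenitors, lower by day 1, and then stayed within a narrow range until day 11. Its log2 change from day 0 to day 18 was -0.88, computed like all changes below on log2(FPKM + 0.1), a scale that understates the change of genes with low values.

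ELAVL2 (chr9:23690105-23826063, minus strand) was at 10.7, 12.7, 12.7, 19.0, 24.2, 43.3 and 37.0 FPKM on the 7 days in order. Its highest value was on day 11, and every later day was above day 0. ELAVL3 (chr19:11562143-11591803, minus strand) was at 17.9, 21.5, 27.1, 28.3, 31.3, 47.5 and 48.4 FPKM on the same days. Its value was higher on each day than on the day before, with nearly equal levels on days 11 and 18, and on day 18 it had the highest level of the 10 genes. From day 0 to day 18 the log2 change was 1.78 for ELAVL2 and 1.43 for ELAVL3.

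ELAVL4 (chr1:50513686-50667540, plus strand) had the lowest level of the 10 genes on day 0 and on day 18. Its FPKM was 0.149, 0.368, 0.650, 0.767, 1.64, 2.67 and 4.89 on the 7 days, each value above the one before. The ratio of day 18 to day 0 was 32.9, and the log2 change was 4.33. The size of that change rests on a day 0 level near 0, and with a pseudocount of 1 in place of 0.1 it was 2.36. Of the expressed coding records (mean FPKM over the days at or above 1), 99.6% had a smaller change than ELAVL4. With a mean of 1.59, ELAVL4 passed that limit only through its values on days 5 to 18. Its place among these records is thus in part set by the limit itself.

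Within a day, levels of related genes can be compared without regard to the scaling between days. ELAVL2, ELAVL3 and ELAVL4 together made up 46.6% of the summed FPKM of the Hu family on day 0, 60.3% on day 1, 64.5% on day 2, 67.6% on day 4, 72.9% on day 5, 81.5% on day 11 and 83.6% on day 18. The neuronal share was thus higher at each later day. ELAVL4 supplied only 0.241% of the family on day 0 and 4.53% on day 18, so the share was mostly that of ELAVL3 (44.8% on day 18) and ELAVL2 (34.2%). The summed FPKM of the family was 61.6 on day 0, 115 on day 11 and 108 on day 18.

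**Figure D1:**
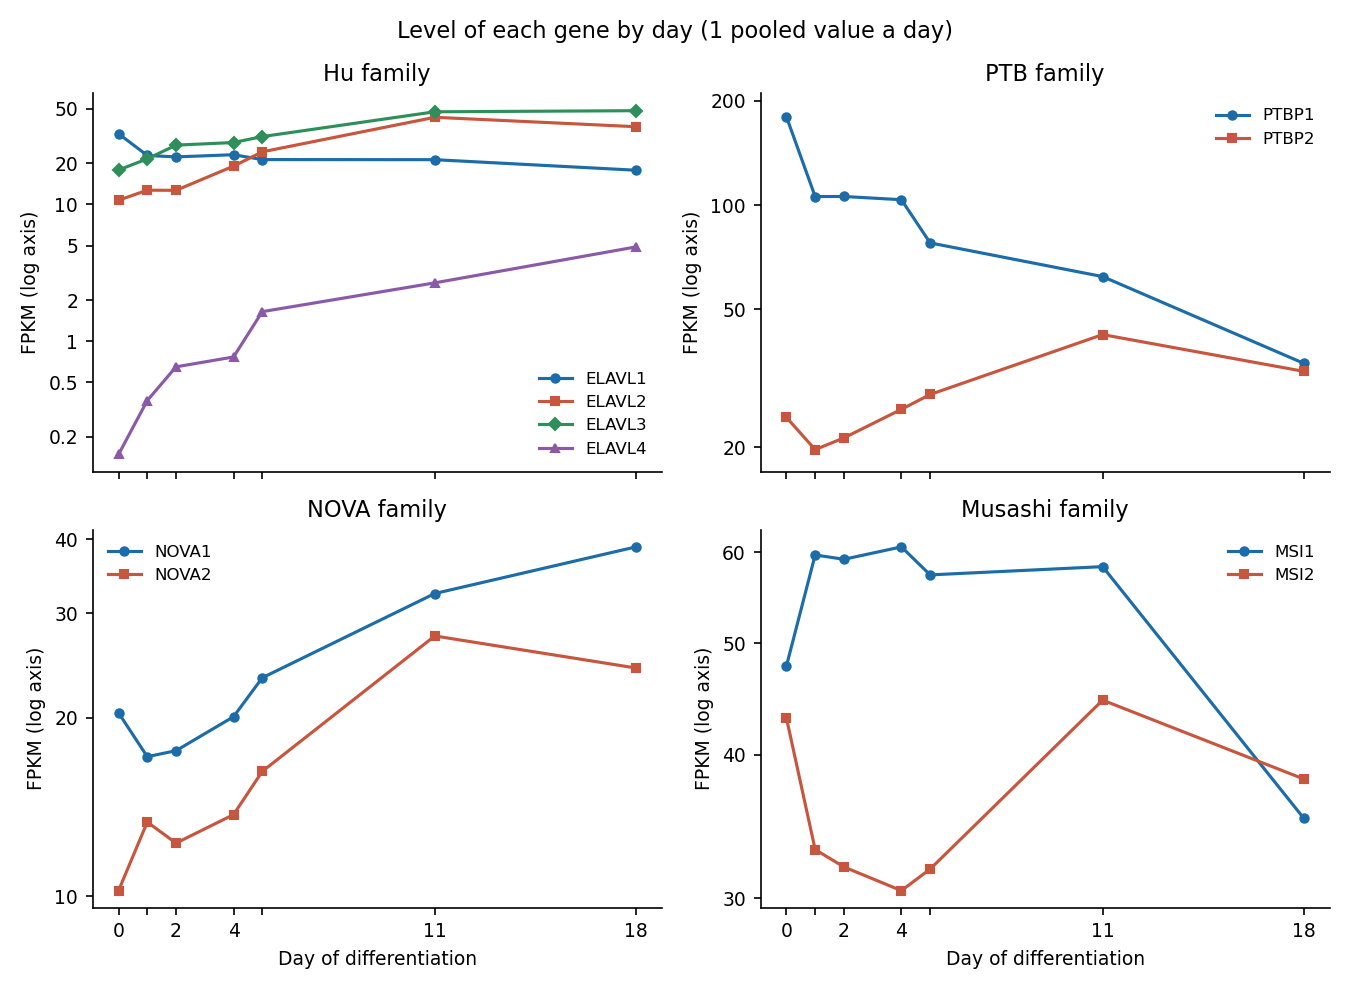
FPKM of each gene (log axis, a different range in each panel) against the day of differentiation, with 1 panel per family and 1 point per day pooled over the cultures of that day. PTBP1 runs from 180.0 down to 34.9, ELAVL4 from 0.149 up to 4.89, and MSI1 lies between 57.3 and 60.6 on days 1 to 5.

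PTBP1 was the only member of the 10 that was at least 2-fold lower on day 18 than on day 0, and the levels of PTBP1 and PTBP2 were far apart on day 0 and close on day 18. PTBP1 (chr19:797392-812327, plus strand) was at 180.0 FPKM on day 0, 106 on days 1 and 2, 104 on day 4, 77.8 on day 5, 62.2 on day 11 and 34.9 on day 18. It had the highest level of the 10 genes on each day until day 11 and ranked 6 of 10 on day 18. Most of the difference lay in the first step and after day 4, with a plateau between days 1 and 4. The level on day 0 was 5.15 times that on day 18, a log2 change of -2.36, and 4.39% of expressed coding records had a lower change.

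PTBP2 (chr1:97187175-97280599, plus strand) was at 24.4, 19.7, 21.3, 25.7, 28.4, 42.3 and 33.1 FPKM. It was lowest on day 1 and highest on day 11, and its log2 change to day 18 was 0.44. PTBP3, listed under its older symbol ROD1 and the third paralog of the family, was at 15.0 FPKM on day 0 and 9.18 on day 18, a log2 change of -0.70.

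The ratio of PTBP2 to PTBP1 was 0.135 on day 0, 0.186 on day 1, 0.201 on day 2, 0.248 on day 4, 0.365 on day 5, 0.680 on day 11 and 0.948 on day 18. It was higher on each day than on the day before, with a log2 change of 2.81 from day 0 to day 18. PTBP2 thus made up 11.9% of the summed FPKM of PTBP1 and PTBP2 on day 0 and 48.7% on day 18, while that sum went from 204 to 68.0. As deposited, the change in the ratio came more from PTBP1 (-2.36) than from PTBP2 (0.44). Unlike the ratio, that split depends on the scaling between days. Relative to the median change of expressed coding records, PTBP1 and PTBP2 were at -1.76 and 1.04 on day 18, and at -1.21 and 1.12 on day 11.

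**Figure D2:**
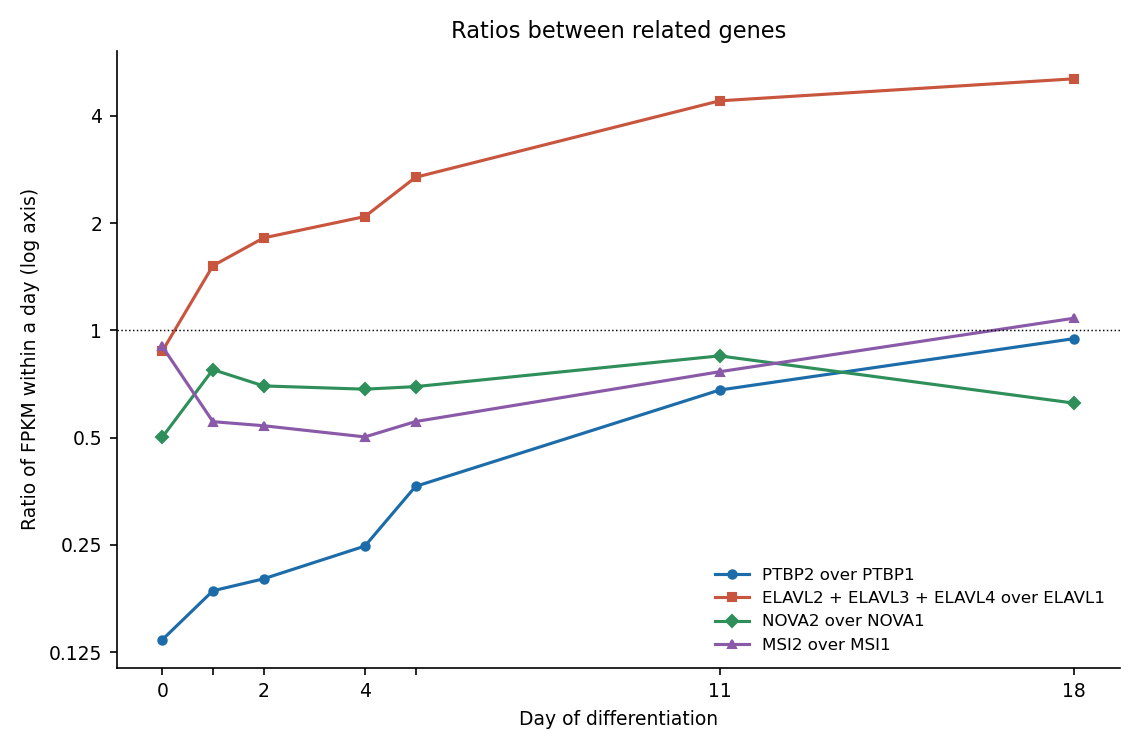
Ratio of FPKM between related genes within each day (log axis) against the day of differentiation; the dotted line marks equal levels. PTBP2 over PTBP1 goes from 0.135 to 0.948 and the neuronal Hu genes over ELAVL1 from 0.874 to 5.08, whereas the NOVA and Musashi ratios stay between 0.502 and 1.08.

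Both NOVA genes had higher levels late in the time course. NOVA1 (chr14:26915090-27066960, minus strand) was at 20.4, 17.2, 17.6, 20.1, 23.4, 32.4 and 38.8 FPKM on the 7 days. It was lowest on day 1 and highest on day 18, with a log2 change of 0.93 from day 0 to day 18. NOVA2 (chr19:46442771-46476657, minus strand) was at 10.2, 13.3, 12.3, 13.7, 16.2, 27.5 and 24.3 FPKM. It was lowest on day 0 and highest on day 11, with a log2 change of 1.24 to day 18.

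NOVA1 had the higher FPKM of the pair on all 7 days. The ratio of NOVA2 to NOVA1 was 0.502 on day 0, 0.848 on day 11 and 0.625 on day 18, so the pair kept its order. Their summed FPKM was 30.6 on day 0 and 63.1 on day 18. GLRA2, a glycine receptor subunit whose transcript is a known NOVA1 target, lies in a record shared with GLRA3 that was at 0.163 FPKM on day 0 and 7.03 on day 18, and gephyrin (GPHN), another known target, was at 11.0 and 15.5.

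The Musashi genes differed from each other in course rather than in end point. MSI1 (chr12:120779133-120806958, minus strand) was at 47.8 FPKM on day 0, then at 59.7, 59.1, 60.6, 57.3 and 58.3 on days 1, 2, 4, 5 and 11, and at 35.2 on day 18. Days 1 to 11 were all above day 0, and day 18 was below it. MSI2 (chr17:55333212-55757299, plus strand) was at 43.0 FPKM on day 0, 33.1, 31.9, 30.5 and 31.8 on days 1 to 5, 44.6 on day 11 and 38.1 on day 18. On days 1 to 5 MSI2 was thus below its day 0 level where MSI1 was above its own. Both genes were lower on day 18 than on day 11. The software that made the comparisons between adjacent days listed its test for MSI2 as failed in all 6 steps, and for none of the other 9 genes.

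The log2 change from day 0 to day 18 was -0.44 for MSI1 and -0.18 for MSI2, and relative to the median of coding records it was 0.16 and 0.42, so the direction of both depended on the scaling. The ratio of MSI2 to MSI1, which does not, was 0.901 on day 0, 0.502 on day 4 and 1.08 on day 18. NUMB and CDKN1A, mRNAs that Musashi proteins are known to repress at translation, were at 10.6 and 120 FPKM on day 0 and at 9.16 and 68.0 on day 18.

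Set against all coding records, 4 of the 10 genes (ELAVL2, ELAVL3, ELAVL4 and NOVA2) were at least 2-fold higher on day 18 than on day 0, where 7.57% of the 11793 expressed coding records were. PTBP1 was at least 2-fold lower, as were 29.9% of coding records. All 10 genes had a mean of at least 1 FPKM, ELAVL4 only through its values on days 5 to 18. The median change over these coding records was -0.60, and the median over the 10 genes was 0.68. Relative to the coding median, 6 of the 10 genes were at least 2-fold higher (PTBP2 at 1.04 and NOVA1 at 1.52 joining the 4) against 14.7% of coding records, and PTBP1, at -1.76, was still at least 2-fold lower, against 12.1%. ELAVL1 was at -0.28 relative to the median. The genes nearest to the 2-fold limit were PTBP2, just above it relative to the median, and NOVA1, just below it as deposited.

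**Figure D3:**
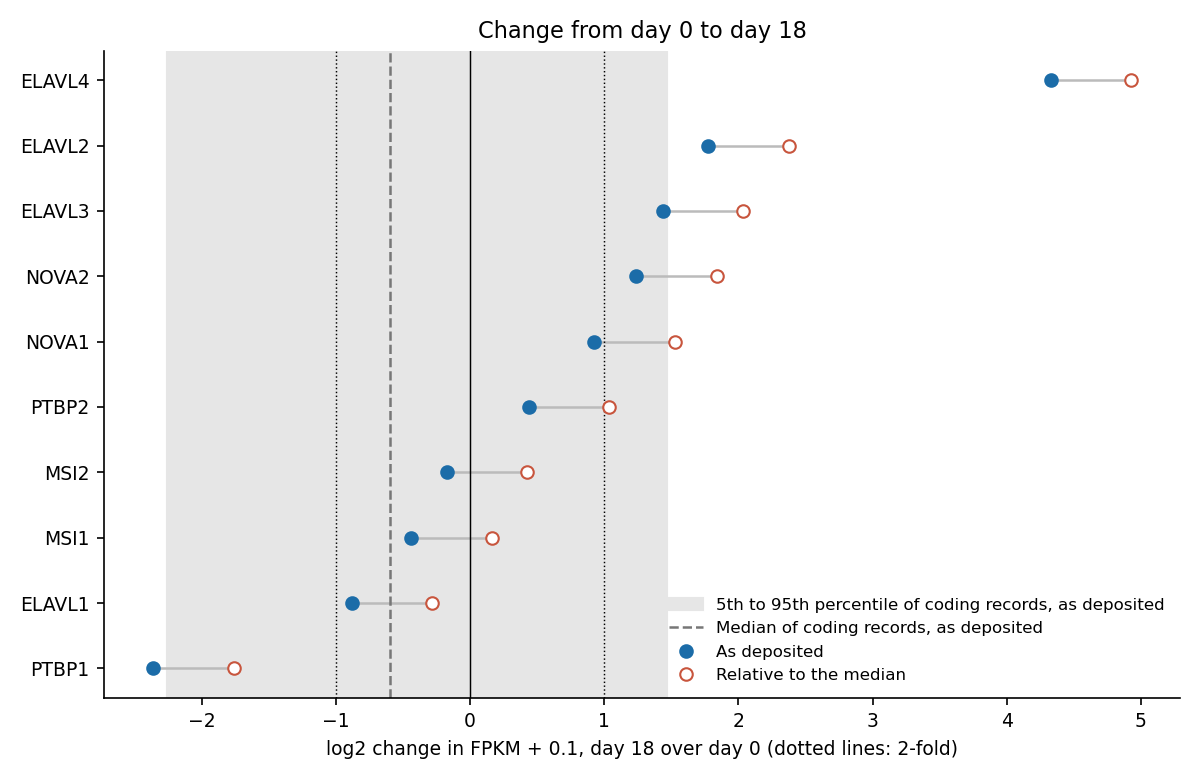
Change in log2(FPKM + 0.1) from day 0 to day 18 for each gene, as deposited (filled) and relative to the median of coding records (open); the grey band spans the 5th to 95th percentile of coding records as deposited and the dashed line their median of -0.60. ELAVL4 and ELAVL2 lie above the band and PTBP1 lies just below it, and MSI1 and MSI2 cross 0 between the scalings.

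Between adjacent days the changes were smaller. Of the 60 steps of the 10 genes, only that of ELAVL4 from day 4 to day 5 reached 2-fold as deposited, at a log2 change of 1.01. The share of coding records that reached 2-fold in either direction was 6.69% in the step ending at day 1, 0.280% in that ending at day 2 and 0.780% in that ending at day 4. It was 0.305% in the step to day 5, 6.04% in the step to day 11 and 4.56% in the last step. In the first step 5 genes were higher and 5 lower, with ELAVL4 at 0.91 and PTBP1 at -0.77 as the extremes and a coding median of -0.11. From day 5 to day 11, 8 of the 10 genes were higher, with a median of 0.53 against -0.16 for coding records, and ELAVL2 (0.84) and NOVA2 (0.75) changed most. From day 11 to day 18, 7 were lower as deposited, with PTBP1 at -0.83 and MSI1 at -0.73 in log2. Most coding records were lower in that step as well, with a coding median of -0.28. Relative to that median the tally turned round, with 3 genes lower (PTBP1, MSI1 and PTBP2) and 7 higher. The count of ELAVL4 steps was 3 after recentring on the coding median (days 0 to 1, 4 to 5 and 11 to 18) and 0 with a pseudocount of 1.

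**Figure D4:**
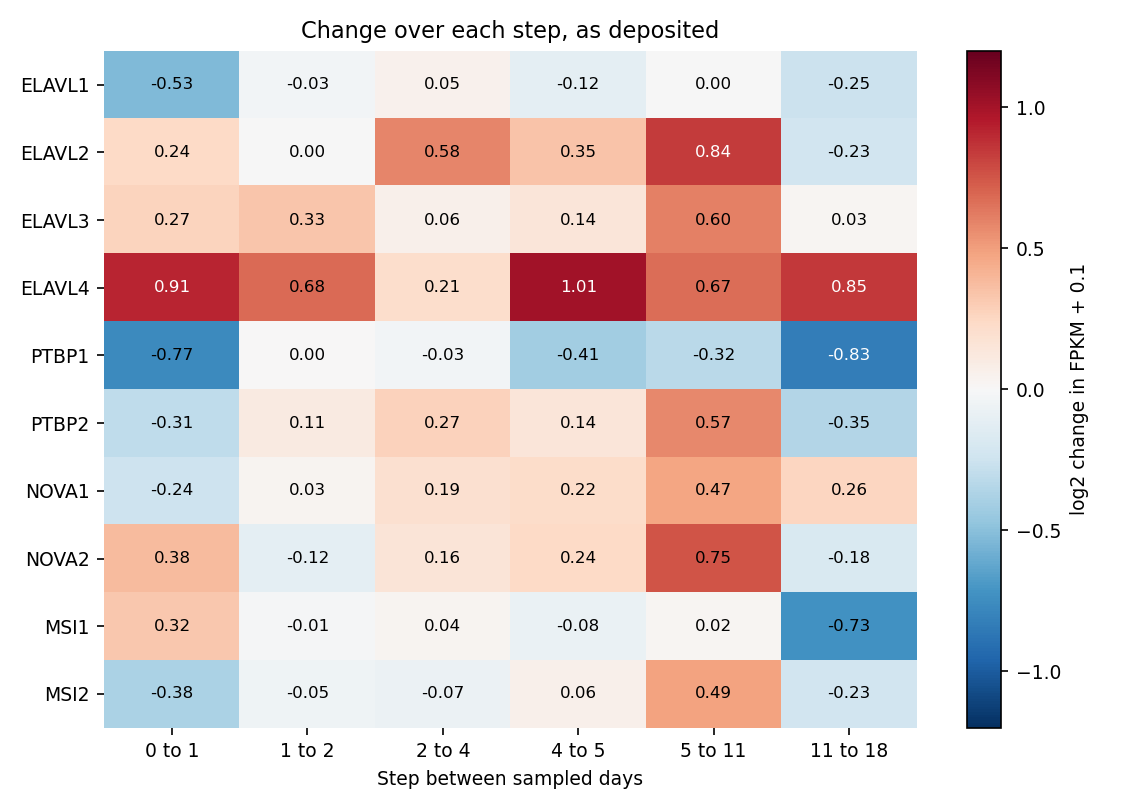
Change in log2(FPKM + 0.1), as deposited, of each gene over each of the 6 steps between sampled days, with the value printed in the cell (red higher, blue lower on the later day). The values from day 1 to day 2 are near 0 except for ELAVL4 (0.68) and ELAVL3 (0.33). The step from day 5 to day 11 is higher for 8 of the 10 genes, where the coding median is -0.16.

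The order of levels among the 10 genes changed over the time course. On day 0 the genes ran from PTBP1 through MSI1, MSI2, ELAVL1, PTBP2, NOVA1, ELAVL3, ELAVL2 and NOVA2 down to ELAVL4. On day 18 they ran from ELAVL3 through NOVA1, MSI2, ELAVL2, MSI1, PTBP1, PTBP2, NOVA2 and ELAVL1 down to ELAVL4. The 6 genes from NOVA1 to PTBP2 on day 18 lay between 38.8 and 33.1 FPKM. With 1 pooled value a day, it cannot be said which neighbours in either order differ beyond the spread between cultures.

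Some noncoding records lie on or beside these genes, and the sources used here do not say that reads were counted by strand, so reads from overlapping exons on opposite strands cannot be told apart. linc-NOVA2-AS runs on the plus strand across the end of NOVA2, and its exons cover 28.4% of the NOVA2 exon bases. Its FPKM was 11.1, 15.0, 13.6, 15.9, 18.9, 26.0 and 19.2 on the 7 days, between 0.791 and 1.16 times that of NOVA2. linc-MSI2-AS, on the minus strand, covers 8.07% of the MSI2 exon bases and was at 26.4 FPKM on day 0, 20.1 on day 4 and 29.6 on day 18. For both pairs the 2 records had similar courses. The shared bases made up 8.28% of the linc-NOVA2-AS exon bases and 6.41% of those of linc-MSI2-AS. The part of shared reads in these values was not tested. linc-ELAVL3-AS covers 4.70% of the ELAVL3 exon bases and was at 0.648 FPKM on day 0 and 1.23 on day 18. linc-MSI2-BP and linc-ELAVL2-AS, which overlap the spans of MSI2 and ELAVL2, had a mean FPKM of 0.0482 and 0.160.

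Of the noncoding records named after these genes that do not overlap them, linc-NOVA2 was at 2.63 FPKM on day 0 and 5.99 on day 18, linc-ELAVL1-BP at 0.827 and 0.537, and linc-MSI1-BP at 0.720 and 0.970. linc-PTBP2-1 was at 127 FPKM on day 0, 248 on day 4 and 139 on day 18, and carries a pseudogene flag in the deposited annotation. The other such records, named after NOVA1, ELAVL2, PTBP1 and PTBP2, each had a mean below 0.1 FPKM. Between the coding transcripts of related members the longest identical run in the GENCODE set was 26 bases (ELAVL3 and ELAVL4), and PTBP1 shared at most 48 bases with its processed pseudogene PTBP1P.

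The courses most like each gene were sought among the other expressed coding records by the root mean square difference of the centred log2 values over the 7 days. For PTBP1 these were NCAPG2 (0.044) and MCM8 (0.053), a condensin subunit and a replication helicase. For ELAVL4 they were TMEM59L (0.12) and OLFM2 (0.14), the least close of all pairs. ELAVL1 was nearest to SLC20A2 (0.026) and DHX30 (0.029), ELAVL2 to PIK3IP1 (0.055), and ELAVL3 to NAP1L5 (0.085) and KIAA1211 (0.092). PTBP2 was nearest to the merged record of MC1R, TUBB2C and TUBB3 (0.073) and to MEIS2 (0.074), NOVA1 to FAM117B (0.061) and the merged record of MAPK10 and MAPK8 (0.066), and NOVA2 to ACCN2 (0.073) and KIAA1370 (0.085). MSI1 was nearest to the merged record of FPGT and TNNI3K (0.039) and to DET1 (0.068), and MSI2 to ZSWIM6 (0.036) and PAFAH1B3 (0.064). Among the 10 genes themselves, ELAVL3 and NOVA2 were the closest pair (0.15). These are the smallest differences among many records and carry no test.

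Other RNA-binding protein genes were described by 3 lists. Of 24 tissue-regulated splicing factors, 22 were found and 21 were expressed by the same limit. At day 18, 6 of the 21 were at least 2-fold higher as deposited, where 7.57% of expressed coding records were, and 7 were at least 2-fold lower, a share near the 29.9% of coding records. Relative to the coding median 7 were higher (14.7% of coding records) and 1 was lower (12.1%). The brain-enriched CELF proteins CELF4 (0.472 to 21.3 FPKM), CELF5 (0.718 to 24.1) and CELF3 (3.28 to 42.0), listed as BRUNOL4, BRUNOL5 and TNRC4, had some of the largest changes, with log2 values of 5.23, 4.89 and 3.64. SRRM4, the activator of neural microexons, was at 0.424 FPKM on day 0 and 10.3 on day 18 (4.31), and its relative SRRM3 at 0.653 and 12.2 (4.03). MBNL3, a muscleblind protein, was at 9.69 and 1.21 (-2.90). The median log2 change of the list was -0.36.

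Of the 26 factors of mRNA stability, transport and translation, all were found and 23 were expressed by that limit. On day 18, 1 was at least 2-fold higher and 5 at least 2-fold lower as deposited, shares not above the 7.57% and 29.9% of coding records. Relative to the coding median 2 were higher and 2 lower, below the 14.7% and 12.1% of coding records, and the list's median was -0.72. CPEB4, a regulator of polyadenylation and translation, was at 3.36 FPKM on day 0 and 8.11 on day 18. RBMS1 was at 23.5 and 4.48, and HNRNPD, also known as AUF1, which competes with Hu proteins for AU-rich elements, was at 263 and 85.9.

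All 26 general splicing factors, the SR proteins, heterogeneous nuclear ribonucleoproteins and splice-site factors used by every cell, had lower values on day 18 as deposited, from -0.32 to -1.89 in log2. The 75th percentile of expressed coding records was -0.034, so most of these records were lower as well. Relative to the coding median, TRA2A (0.28) and SF3B1 (0.073) were higher. As deposited, 17 of the 26 factors were at least 2-fold lower, against 29.9% of coding records. Relative to the coding median 5 were, against 12.1%: SRSF2 (-1.30), U2AF1 (-1.25), HNRNPM (-1.18), SRSF1 (-1.10) and HNRNPF (-1.08). The authors' test had failed in 5 steps for U2AF1 and in all 6 for HNRNPM. The list's median was -1.27. None of the 26 had a lower change than PTBP1 (-2.36), and over the 3 lists 2 of 70 genes did, MBNL3 and RBMS1, the latter nearly level with PTBP1. Only 4.39% of expressed coding records had a lower change, so these counts do not set PTBP1 apart from the lists.

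**Figure D5:**
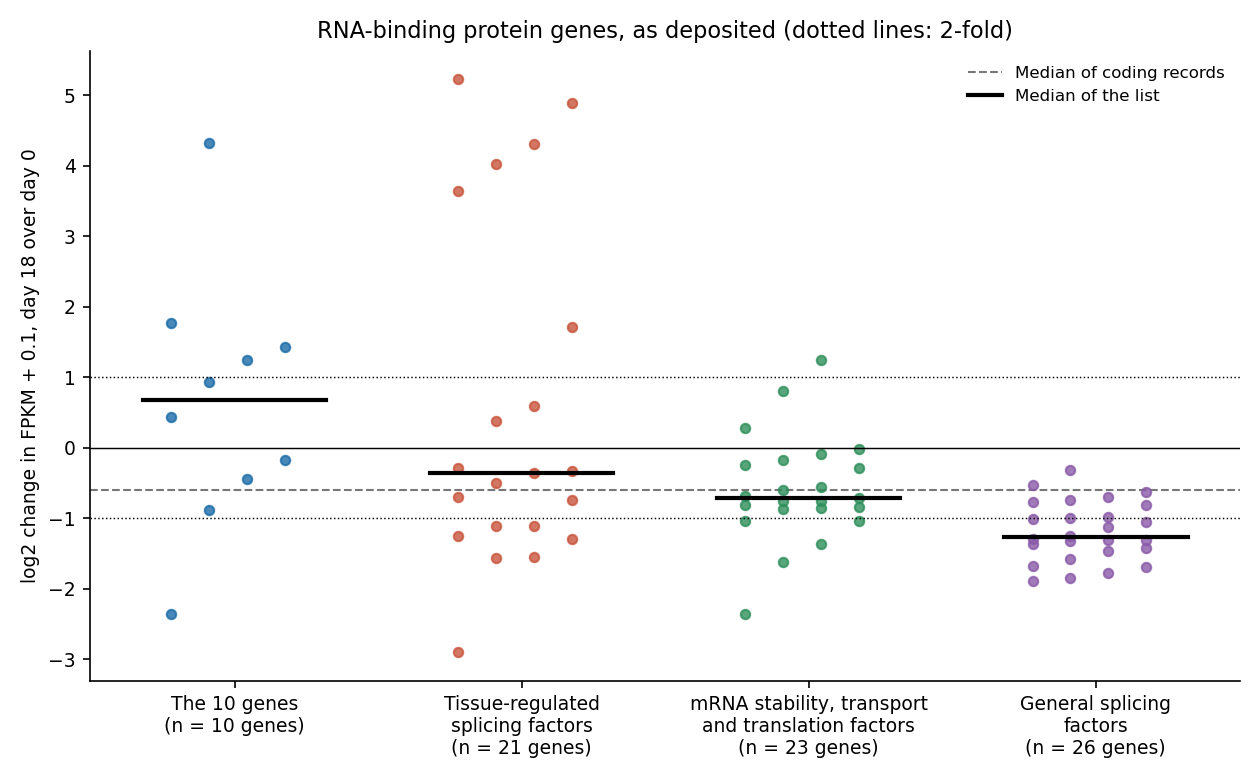
Change in log2(FPKM + 0.1) from day 0 to day 18, as deposited, for the 10 genes and for the expressed genes of the 3 lists; each point is 1 gene, bars are list medians and the dashed line is the median of coding records. The 10 genes have a median of 0.68 and the 26 general splicing factors, all below 0 on this scaling, a median of -1.27. The 75th percentile of expressed coding records is also below 0, at -0.034.

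Transcripts reported as targets of the Hu proteins or of PTB proteins were followed as well. GAP43, a growth cone protein whose mRNA HuD binds, was at 193 FPKM on day 0 and 55.7 on day 1, and then at 56.6, 63.6, 122, 153 and 173 on the following days. It was lowest on day 1 and higher at each later day, and on day 18 it was still below day 0. DLG4, the postsynaptic scaffold PSD-95 whose mRNA PTB proteins are known to repress, was at 14.5 FPKM on day 0, 20.3 on day 11 and 29.1 on day 18. Of the 6 target transcripts examined, GLRA2 alone, in its merged record, was at least 2-fold higher on day 18 as deposited (7.57% of coding records), and DLG4 fell just short at a log2 change of 1.00. Relative to the coding median 3 of the 6 were, GLRA2 (5.36), DLG4 (1.60) and GPHN (1.09), against 14.7% of coding records.

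Markers of several cell types differed between day 0 and day 18. All 5 markers of cycling cells were at least 2-fold lower on day 18, as deposited (29.9% of coding records) and relative to the coding median (12.1%). Their summed FPKM was 459 on day 0 and 76.6 on day 18. Of 8 neuron markers, 6 were at least 2-fold higher as deposited (7.57% of coding records) and relative to the coding median (14.7%). NEFL was at least 2-fold lower as deposited but not relative to the median (-0.57). The sum of the 8 markers was 686 on day 0 and 1658 on day 18. Of this, 382 and 502 came from TUBB3, whose record is merged with MC1R and TUBB2C. The summed level of 7 progenitor markers was 3621 on day 0 and 1788 on day 18, most of it VIM. Within that list NES was at least 2-fold lower as deposited (513 and 180.4 FPKM), whereas HES5 (1.95 and 20.0) and PAX6 (4.31 and 10.4) were at least 2-fold higher. Mesenchymal markers were also present on day 0 (sum 658, mostly TAGLN and COL3A1) and lower on day 18 (56.7), as were LIN28A and DNMT3B of the pluripotency list, while POU5F1 and NANOG were near 0 on both days. The defining astrocyte marker GFAP and the oligodendrocyte factors OLIG1, OLIG2 and SOX10 were below 0.2 FPKM on both days, whereas SLC1A2 of the astrocyte list was at 17.9 on day 18. In these bulk samples, fewer cells of a type and less RNA per cell cannot be told apart, and the part of the cell makeup in the values of the 10 genes was not tested.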

How the data were processed

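The study sequenced 20 polyadenylated RNA samples, grouped by the day in their titles. Per the labels and the study's methods, the authors aligned paired reads to hg19 with TopHat2 and estimated FPKM with Cuffdiff2 over the cultures of a day. Program versions are not given in the sources used here. The deposited FPKM files hold 1 value per record and day, and 0 columns belong to a single culture, so the depth is unknown, and no SD, interval or test was computed. Annotation deposited by the authors (coordinates, isoforms, test status, flags) was used as such. The authors' comparison columns (fold changes, test statistics, p-values and q-values for adjacent days) were not used. Values in the matrix differed from those in the other table for 4 records, none among the 10 genes.

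Changes were taken on log2(FPKM + 0.1), and a change of at least 2-fold was counted as called, beside the share over the 11793 coding records whose mean FPKM was at or above 1 (expressed). Values relative to the median subtract the median change of these records. Per symbol the coding record with the highest mean was kept. Older symbols were matched through RefSeq synonyms for 19 of the 128 list genes found. Within the lists, genes past 2-fold on both scalings were named by size, at most 6 a list, together with the 2 most similar records per gene (1 of them is not reported here), the noncoding records at or named after the genes and the target transcripts. Scripts (Python 3, pandas, pysam) were checked on simulated data. The members and lists were chosen with earlier results of these data known. Alternatives were other pseudocounts (1 and 0.01), scalings (median and upper quartile), a 1.5-fold rule, no filter on low values, sums over records, ratios of FPKM + 0.1, and day 11 in place of day 18.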

Additional observations from a re-analysis of the deposited data

How the results depend on the processing

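Values were pooled by day, so no replicate could be left out and no model fitted. No paired analysis was possible because the columns carry no replicate number. PTBP1 stayed at least 2-fold lower and ELAVL2, ELAVL3, ELAVL4 and NOVA2 at least 2-fold higher on day 18 under each alternative run. Under a 1.5-fold rule 2 genes were counted as lower, which adds ELAVL1, and 5 as higher, which adds NOVA1. MSI1 changed sign with recentring (0.16), upper-quartile scaling (0.31) and day 11 in place of day 18 (0.29), as did MSI2 (0.42, 0.58 and 0.051). The ratio of MSI2 to MSI1 had a log2 change of 0.26 to day 18 and -0.24 to day 11. The number of the 60 steps past 2-fold was 0 with a pseudocount of 1, 2 with 0.01 and 3 under either scaling. Under a 1.5-fold rule 11 steps were past 1.5-fold. Tissue-regulated splicing factors at least 2-fold lower numbered 1 under either scaling. Stability, transport and translation factors counted as higher numbered 2 after recentring or under a 1.5-fold rule. They numbered 3 with upper-quartile scaling and 4 with no filter on low values. Those counted as lower numbered 2, 1 and 14 after recentring, with upper-quartile scaling and under a 1.5-fold rule. General splicing factors at least 2-fold lower numbered 5 after recentring and 3 with upper-quartile scaling. The share of expressed coding records moved with the setting as well. Those lower were 29.9% in the main setting, 12.1% after recentring, 9.86% with upper-quartile scaling and 50.8% under a 1.5-fold rule. Those higher were 7.57%, 14.7%, 17.2% and 11.9% in the same order. With no filter on low values, 8.02% of all coding records were higher. The median change of expressed coding records from day 0 to day 18 was -0.60 as deposited, which recentring sets to 0, and the depth that would limit low values such as ELAVL4 on day 0 is unknown.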
